A study of Mus musculus with 4 samples.

Results

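Patrolling (non-classical) monocytes were sought in single-cell RNA libraries of mouse liver by a rule on 9 genes. Kept barcodes had at least 300 genes, at least 500 transcripts counted by unique molecular identifier (UMI) and at most 30% mitochondrial UMIs. Members were kept barcodes with at least 2 UMIs of Ace, Treml4 and Cd300e together, at least 1 UMI of Cx3cr1 or Csf1r, and 0 UMIs of Chil3, Cd3e, Clec4f and Siglech. The rule took 925 of 28199 kept barcodes. Of these, 58 of 6359 were in the control library, 175 of 5359 in the low-AFP library, 282 of 8477 in the high-AFP library and 410 of 8004 in the HCC (hepatocellular carcinoma) library. Members were thus chosen by the measured UMIs of these 9 genes, whose values are given as a description and support nothing.

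The series follows liver cells of C57BL/6 mice along the course from obesity to HCC, with 1 library per group. The control library is labelled as control diet and the low-AFP library as CD-HFD. The high-AFP library is called control diet in its title and CD-HFD in the name of its deposited matrix, and for this reason AFP labels name the groups in what follows. The HCC library came from a cell suspension of the tumour region, and its title gives no diet. Titles give an age of 15 months and the age field gives 17 months for all 4 libraries. No group carries a transgene or a drug treatment per the labels, and the number of animals behind each library is not given in the sources used here. Parenchymal cells and live-sorted non-parenchymal cells were mixed in equal parts, so shares of all barcodes were partly set by that mixing.

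Patrolling monocytes descend from classical Ly6C-high monocytes, depend on the nuclear receptor Nr4a1 and on CX3CR1 signalling, and crawl along the inner wall of small vessels, where they clear debris. In the liver they meet resident Kupffer cells, which are macrophages lining the sinusoids, and macrophages derived from recruited monocytes. Ace encodes angiotensin-converting enzyme, Treml4 and Cd300e encode receptors of the myeloid cell surface, and Spn encodes CD43, the surface protein by which these monocytes are usually sorted.

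The 4 libraries held 71957655, 80505127, 97393862 and 65326793 UMIs. Values for 4 libraries are listed throughout in the order control, low-AFP, high-AFP, HCC. Kept barcodes had a median of 5419, 7324, 6260 and 4840 UMIs. Between 23 and 39 barcodes were shared by each pair of libraries, and no member shared its barcode with a member of another library. With 1 library per group, comparisons between libraries have no replicate check and carry no p-value. Sums of UMIs are given as counts per 1000000 nuclear-encoded UMIs (CPM) of the cells named, and intervals are exact at 95% and cover counting error only. In summed RNA, fewer cells of a type and less RNA per cell cannot be told apart.

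Members were deep barcodes, with medians of 9208.5, 12091, 10758 and 9177.5 UMIs against 5373, 7081.5, 6092 and 4697 in other kept barcodes. A Ptprc UMI (CD45, the pan-leukocyte protein) was present in 57, 172, 278 and 404 of them. The genes that admitted them differed between libraries. An Ace UMI was present in 37.9%, 29.7%, 21.6% and 71.7% of members, and a Treml4 UMI in 93.1%, 92.6%, 96.1% and 82.9%. Members admitted by Treml4 alone, without Ace or Cd300e, were 41.4%, 45.7%, 53.5% and 14.9%. T cells, which should lack these genes, had an Ace UMI in 0.18%, 1.97%, 2.55% and 2.29% and a Treml4 UMI in 3.47%, 9.65%, 10.1% and 2.50% of cells, at median depths of 4343, 4915.5, 4140 and 4512 UMIs. The rule fixes a higher share of these genes in members. HCC members mostly held an Ace UMI and high-AFP members mostly did not.

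C1q transcripts split the members and went against their label. C1qa, C1qb and C1qc encode the recognition subunits of the complement C1 complex and are hallmarks of tissue macrophages. Members were divided, after this was seen, into C1q-low barcodes with under 10 C1q UMIs per 10000, C1q-high barcodes with at least 50 per 10000, and those between. C1q-low members numbered 27, 59, 62 and 304, or 46.6%, 33.7%, 21.99% and 74.1%. C1q-high members numbered 25, 104, 197 and 77, or 43.1%, 59.4%, 69.9% and 18.8%. Near the limits, 6, 12, 23 and 29 members lay between the 2 values. No C1q UMI at all was found in 20, 48, 46 and 227 members. C1q-low members were therefore the larger class in HCC and C1q-high members in low-AFP and high-AFP. C1q-high members were deeper, with medians of 11494, 13899, 12126 and 15241 UMIs against 7722, 9225, 6967 and 7922.5 in C1q-low members, and the part of depth in their admission was not tested.

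**Figure D1:**
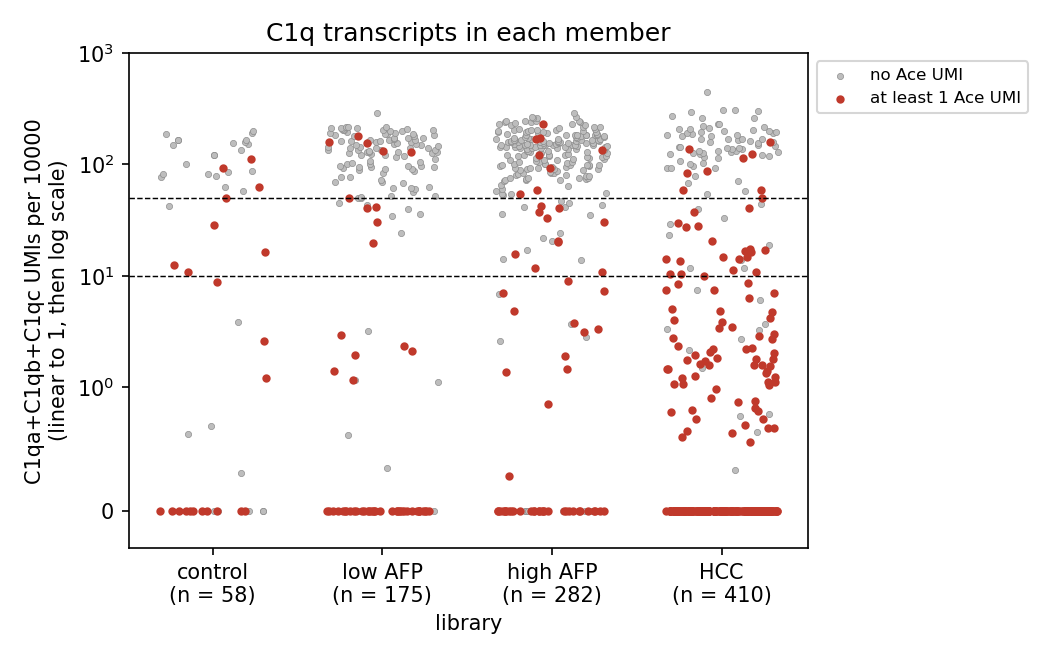
Each point is 1 member, placed by its library (x axis) and its summed C1qa, C1qb and C1qc UMIs per 10000 UMIs (y axis, linear to 1 and logarithmic above), with dashed lines at 10 and 50 and red points for members with an Ace UMI. Red points lie mostly under 10 in every library, and the grey points of the high-AFP library mostly above 50, where 197 of its 282 members lie.

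Of the patrolling marker genes that the rule did not use, Spn, Pglyrp1 and Eno3 followed this split. Spn was at 118, 96.3, 112 and 308 CPM in C1q-low members and at 3.60, 7.64, 9.26 and 18.2 CPM in C1q-high members. Pglyrp1, which encodes an antibacterial peptidoglycan-binding protein, was at 111, 89.5, 100.3 and 331 CPM in C1q-low members and at 0, 0.694, 1.26 and 6.07 CPM in C1q-high members, where 0 UMIs allow up to 10.8 CPM in control. Eno3, the beta isoform of the glycolytic enzyme enolase, was at 76.4, 84.5, 114 and 298 CPM against 10.8, 9.72, 9.26 and 10.4 CPM. The lowest C1q-low library exceeded the highest C1q-high library for Spn, Pglyrp1 and Eno3. T cells carry Spn and Pglyrp1 themselves and give no background for them.

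Other names on the marker list did not all follow the split. Ace, a gene of the rule, did, and was at 195, 214.5, 264 and 454.5 CPM in C1q-low members and at 17.98, 4.17, 5.47 and 24.3 CPM in C1q-high members. Treml4, also of the rule, was alike in both, at 290.3, 213, 230.1 and 301 CPM in C1q-low and 269.7, 255, 289.7 and 268 CPM in C1q-high members. Nr4a1 was at 344, 150.3, 153 and 585 CPM in C1q-low members and at 137, 44.4, 41.7 and 85.8 CPM in C1q-high members, so that the control C1q-high value came close to the low-AFP C1q-low value. Fcgr4, an activating receptor for IgG, went the other way, at 111, 166, 124 and 433 CPM in C1q-low members and 503, 428, 414 and 498 CPM in C1q-high members. Adgre4, an adhesion receptor of the EGF-TM7 family, was at 118, 132, 191 and 327 CPM in C1q-low and 173, 121, 104 and 137 CPM in C1q-high members, and the classes overlapped.

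C1q-high members carried genes of macrophages. Cd5l, a secreted protein made by macrophages, was at 2125, 2952, 3145 and 4367 CPM in them and at 3.82, 3.38, 5.90 and 9.90 CPM in C1q-low members. Folr2, a folate receptor of resident macrophages, was at 71.9, 122, 200 and 167 CPM in C1q-high members and at 0 UMIs in C1q-low members of all 4 libraries, which allows up to 11.5, 5.07, 5.90 and 1.24 CPM. Slc40a1 (ferroportin, the iron exporter) was at 1435, 851, 981 and 1238 CPM in C1q-high members. Mertk, a receptor for the uptake of dying cells, was at 252, 201, 221 and 284 CPM there, and Lpl (lipoprotein lipase) at 957, 1509, 1119 and 1777 CPM. All 4 libraries thus held these genes in C1q-high members, while Clec4f, the Kupffer gene the rule sets to 0, was absent by construction. Timd4, another gene of resident Kupffer cells, was at 0, 7.64, 10.9 and 0.867 CPM.

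Over all genes with a sufficient mean level, 3686 were compared between C1q-low and C1q-high members. In all 4 libraries 103 (2.79%) were at least 2-fold higher in C1q-low members and 181 (4.91%) at least 2-fold higher in C1q-high members. Among the largest C1q-low differences were S100a4, a calcium-binding protein of motile cells, with a mean log2 difference of 5.47 ± 1.24 (SD over 4 libraries), Plac8 with 3.77 ± 0.43 and Ly6c2 with 3.70 ± 0.53. Ace stood at 3.69 ± 0.57 and Spn at 2.997 ± 0.440. S100a4 and Plac8 are on the list of classical monocyte genes, and Ly6c2 is the classical monocyte antigen. Ly6c2 was at 115, 289, 193 and 223 CPM in C1q-low members. The 20 listed classical genes summed to 11270, 23270, 18430 and 24740 CPM in C1q-low members and 11200, 10480, 12460 and 11960 CPM in C1q-high members. In classical monocytes the sums were 50590, 44870, 34660 and 47120 CPM. These are descriptions of a split made on the same cells.

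**Figure D2:**
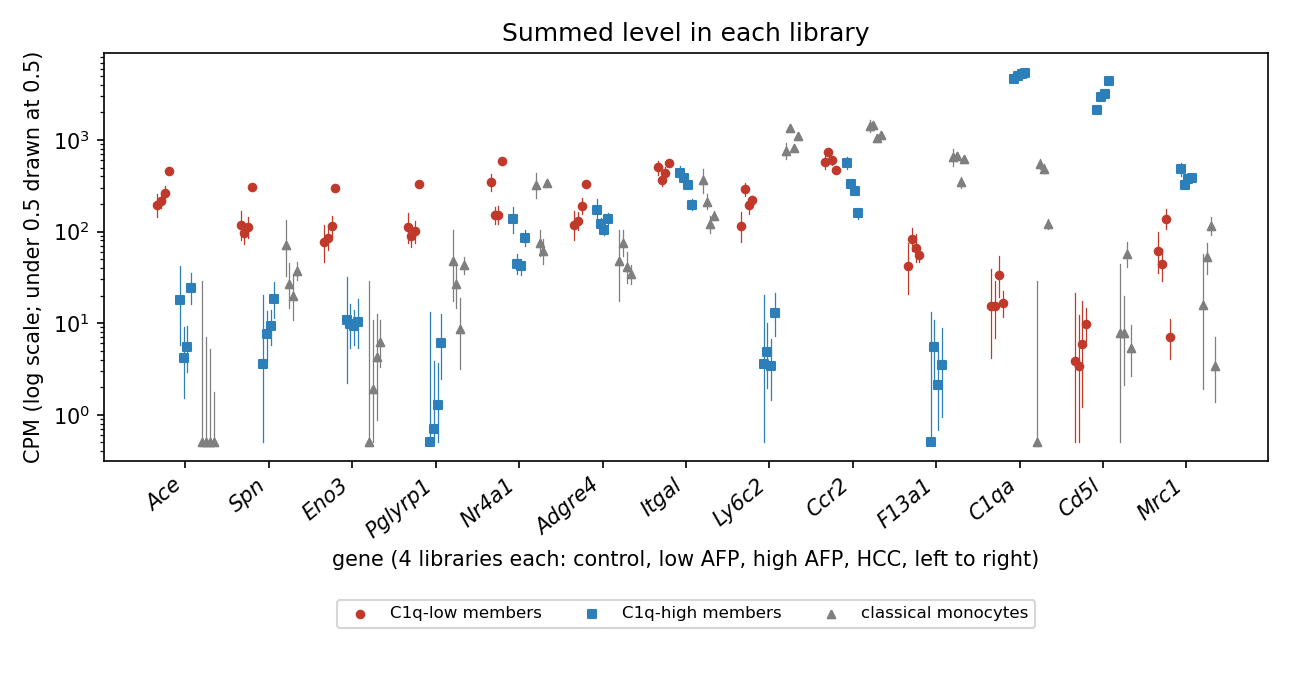
Summed level in CPM (y axis, logarithmic, values under 0.5 drawn at 0.5) of genes of patrolling monocytes, classical monocytes and macrophages (x axis) in C1q-low members, C1q-high members and classical monocytes of the 4 libraries, with exact 95% counting intervals as lines. C1q-low members sit above both other classes for Spn and Eno3, and C1q-high members lie between 2125 and 4367 CPM for Cd5l. Ace is a gene of the member rule and classical monocytes were chosen without it, so that difference was set by the rules.

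C1q-low members also contained barcodes with transcripts of other cells. At least 2 UMIs of the dendritic cell genes Xcr1 and Clec9a were found in 7, 7, 4 and 1 of them, and at least 2 UMIs of the endothelial genes Kdr, Ptprb and Stab2 in 4, 5, 13 and 0. The remaining 18, 47, 45 and 303 C1q-low members are called the narrower set. The 12 hepatocyte markers summed to 9469, 21850, 35230 and 1365 CPM in C1q-low members, with none of the 12 at 0 in any library, so hepatocyte RNA was lowest in HCC. The 12 endothelial markers summed to 1207, 633, 1953 and 35.5 CPM, with Egfl7, Bmp2, Cyp4b1 and Tek at 0 in HCC. The 12 B and plasma cell markers reached 10710 CPM in control C1q-low members against 116 to 256 CPM in the others, and the 430 Jchain UMIs of the control members were all in 1 barcode. The 12 neutrophil markers summed to 34.4, 534, 74.7 and 1029 CPM, with Ly6g, Ngp and Camp at 0 in all 4 libraries. Kupffer markers summed to 130, 272, 264 and 355 CPM, with Marco and Folr2 at 0 throughout. The 12 T and NK cell markers, Ccl5 among them, summed to 252, 67.6, 956 and 307 CPM, highest in high-AFP. The part of these transcripts in the differences between libraries was not tested beyond the narrower set.

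Members made up different shares of leukocytes in the 4 libraries. Of barcodes with a Ptprc UMI, 3.57% (95% Clopper-Pearson interval 2.71 to 4.597, 57 of 1598) were members in control, 8.08% (6.96 to 9.32, 172 of 2129) in low-AFP, 8.91% (7.93 to 9.96, 278 of 3121) in high-AFP and 6.48% (5.88 to 7.12, 404 of 6234) in HCC. The control share was the lowest and lay outside the other 3 intervals, while low-AFP and high-AFP overlapped. C1q-low members alone gave 1.69% (1.12 to 2.45), 2.77% (2.12 to 3.56), 1.96% (1.498 to 2.504) and 4.88% (4.36 to 5.44) of the same barcodes. C1q-high members gave 1.502% (0.965 to 2.23), 4.79% (3.92 to 5.79), 6.22% (5.39 to 7.12) and 1.14% (0.891 to 1.43). The HCC library was thus highest for C1q-low members, where control and high-AFP overlapped. For C1q-high members HCC and control overlapped and lay below the other 2 libraries. Of all kept barcodes, C1q-high members were 0.393% in control and 0.962% in HCC, with control lowest.

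The order of the shares also depended on depth and on single genes of the rule. With every barcode of at least 1500 UMIs thinned to 1500 UMIs before the rule was applied, the shares were 1.33%, 1.70%, 1.70% and 3.19%, with HCC highest. Without the Chil3 criterion they were 4.76%, 13.3%, 12.7% and 12.9%. Control stayed lowest under both settings, but its thinned interval (0.727 to 2.22) overlapped those of low-AFP and high-AFP. Each share describes 1 library, and no test between groups was possible.

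**Figure D3:**
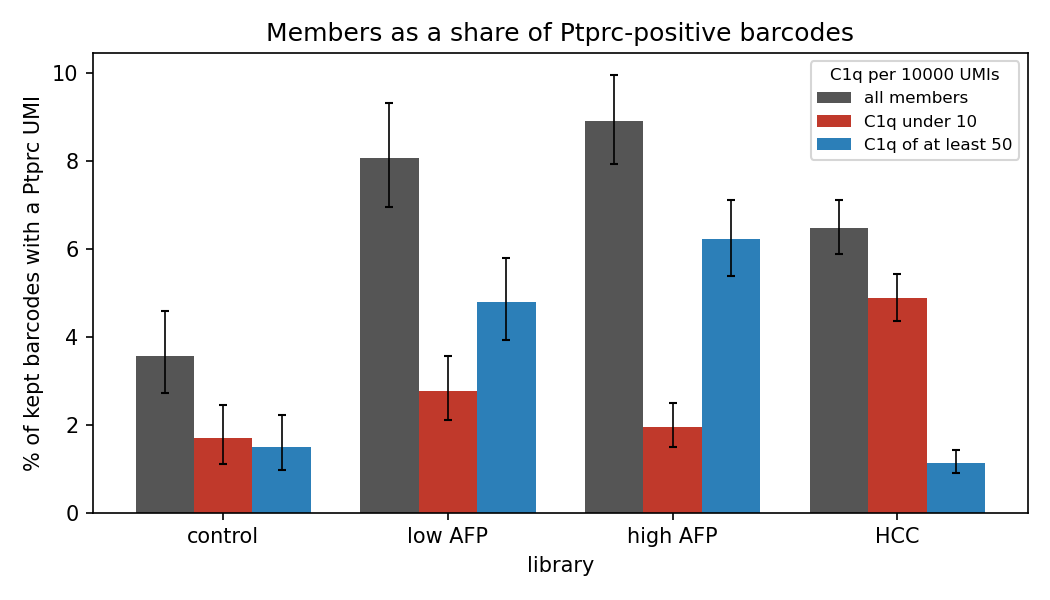
Members as a percentage of kept barcodes with a Ptprc UMI (y axis, from 0) in each library (x axis), for all members, C1q-low members and C1q-high members, with exact 95% binomial intervals. Blue bars (C1q-high) are highest in high-AFP at 6.22% and red bars (C1q-low) in HCC at 4.88%.

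The threshold of 2 UMIs cut through barcodes with overlapping ranges of Spn, while C1qa was higher just inside it in each library. Just inside, with exactly 2 UMIs of Ace, Treml4 and Cd300e, were 15, 58, 86 and 61 members, with C1qa at 1797, 3703, 3768 and 1702 CPM and Spn at 12.1, 21.3, 15.7 and 46.0 CPM. Just outside, with 1 UMI and all else met, were 40, 112, 194 and 128 barcodes, with C1qa at 1513, 2254, 3040 and 755 CPM and Spn at 23.1, 25.8, 11.1 and 42.3 CPM. Spn ranges over the libraries overlapped on both sides of the threshold. Within libraries, Spn was lower just inside in control and low-AFP and higher just inside in high-AFP and HCC.

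The criteria that exclude Chil3 and Clec4f removed unlike barcodes. Chil3 encodes a chitinase-like protein of classical monocytes and neutrophils, and Clec4f a lectin of Kupffer cells. Barcodes excluded by Clec4f alone numbered 124, 186, 318 and 57. They had Ace at 5.96, 3.74, 4.17 and 12.3 CPM, Treml4 at 294, 265, 263 and 317 CPM and C1qa at 4470, 4994, 5201 and 5130 CPM, the same pattern as the C1q-high members. Barcodes excluded by Chil3 alone numbered 19, 113, 119 and 400 and had C1qa at 7.03, 363, 409 and 169 CPM and Ace at 183, 220, 249 and 324 CPM. Their Ace level was thus near that of the C1q-low members, though Ace counted towards the choice of both.

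Members were next compared with classical monocytes of the same libraries, the short-lived blood monocytes from which patrolling monocytes derive. Classical monocytes were taken by the mirrored rule, with Chil3, Ly6c2 and Cx3cr1 or Csf1r present and Ace, Treml4, Cd300e, Cd3e, Clec4f and Siglech at 0. They numbered 55, 79 and 181 in low-AFP, high-AFP and HCC, with medians of 9425, 8644 and 11706 UMIs, and control was left out because it held 18. Sums of members and of classical monocytes were paired by library in edgeR's quasi-likelihood test with Benjamini-Hochberg adjustment at 0.05. The libraries are not stated to come from separate animals, so these p-values measure only the spread between libraries. Of 9648 genes tested, 458 (4.75%) were higher in members and 455 (4.72%) lower. Without the low-AFP library the counts were 231 and 171, and without the high-AFP library 207 and 108.

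Genes of patrolling monocytes were higher in members. Members were chosen by Ace, Treml4 and Cd300e and classical monocytes without them. For genes found in the same cells as these, the direction was thus set in part by the rules. Of 27 measured genes of that list, 14 rose and 1 fell, with a median log2 fold of 1.29 against a median of -0.00 over all genes tested. Eno3 was at 35.2, 29.3 and 199 CPM in members and at 1.93, 4.27 and 6.29 CPM in classical monocytes of low-AFP, high-AFP and HCC, with a log2 fold of 4.51 (SD over libraries 1.17) and an adjusted p of 0.000565 by edgeR. Members exceeded classical monocytes in each of the 3 libraries. Tcf7l2, a transcription factor of the Wnt pathway, rose from 52.2, 27.04 and 20.3 CPM in classical monocytes to 231.5, 181.5 and 156 CPM in members, by 2.52 on the log2 scale (SD 0.26, adjusted p 0.000421, edgeR). Ear2, an eosinophil-type ribonuclease, stood at 214, 215 and 349.6 CPM in members against 71.5, 39.8 and 31.5 CPM. Its log2 fold was 2.48 (adjusted p 0.00535, edgeR). Fcgr4 rose by 2.16, Bcl2, the survival protein, by 2.07, and Itgal, the alpha chain of the integrin LFA-1, by 1.18 on the same scale. Not all of these genes were highest in C1q-low members. Tcf7l2 was at 125, 102 and 117 CPM in C1q-low members and at 262, 203 and 225 CPM in C1q-high members. Fcgr4 was also higher in C1q-high members, while Eno3 and Bcl2 were higher in C1q-low members. Itgal went from 212.5, 121 and 149 CPM to 379, 339 and 428 CPM. The 1 gene that fell was the transcription factor Cebpb, by 0.66 (adjusted p 0.0373, edgeR).

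Several defining genes did not pass in this comparison of all members. Spn was at 33.8, 28.7 and 209 CPM in members and at 27.04, 19.9 and 37.3 CPM in classical monocytes (adjusted p 0.0752, edgeR). Pglyrp1 was at 25.01, 19.1 and 214 CPM against 27.04, 8.54 and 43.1 CPM (adjusted p 0.0648, edgeR), and was lower in members in low-AFP. Nr4a1 was at 76.9, 63.4 and 419 CPM against 75.3, 61.2 and 338 CPM, a log2 fold of 0.05 (adjusted p 0.866, edgeR). Nr4a1 was high in HCC in both classes.

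Within C1q-low members these genes stood further from classical monocytes. Spn was at 96.3, 112 and 308 CPM in C1q-low members, Pglyrp1 at 89.5, 100.3 and 331 CPM, and Eno3 at 84.5, 114 and 298 CPM, each above classical monocytes in every one of the 3 libraries. Counted without a test, since the subset was chosen after its values were seen, 7 of the 27 patrolling genes were at least 2-fold higher in C1q-low members in 3 of 3 libraries, against 29 of 9648 genes (0.301%). They were Bcl2, Dusp16, Eno3, Pglyrp1, Slc12a2, Spn and Tcf7l2. The largest mean log2 differences were those of Eno3, at 3.45 ± 0.69 (SD over 3 libraries), Slc12a2, a sodium, potassium and chloride cotransporter, at 2.62, and Klrd1 (CD94, a lectin-like receptor best known from natural killer cells) at 2.24. The part of T and NK cell transcripts in the Klrd1 difference was not tested. Nr4a1 was at 150.3, 153 and 585 CPM in C1q-low members.

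**Figure D4:**
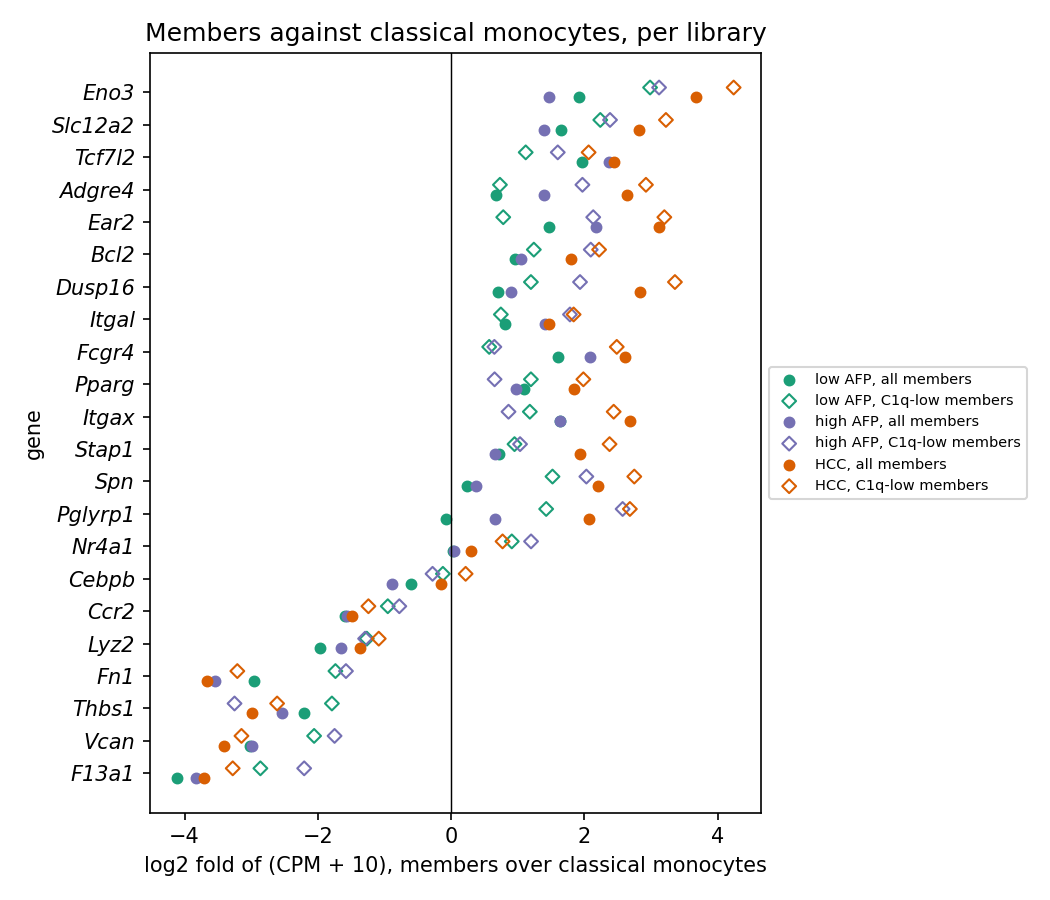
Log2 fold of (CPM + 10) of members over classical monocytes (x axis) for genes of both monocyte lists (y axis) in the low-AFP, high-AFP and HCC libraries, with filled circles for all members and open diamonds for C1q-low members. For Spn and Pglyrp1 the diamonds lie to the right of the circles in each library, and for F13a1, which fell by 4.43 in the test, all points lie left of 0.

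Genes of classical monocytes were lower in members. Classical monocytes were chosen by Chil3 and Ly6c2 and members without Chil3. For genes found in the same cells as these, the direction was thus set in part by the rules. Of 20 on that list, 16 fell and 1, Ly6a, rose, with a median log2 fold of -1.96. F13a1, the coagulation factor XIII A chain, was at 29.2, 15.0 and 38.0 CPM in members and at 664, 344 and 619 CPM in classical monocytes. It fell by 4.43 on the log2 scale (SD 0.20, adjusted p 5.47e-05, edgeR). Vcan, the matrix proteoglycan versican, fell by 4.53 (SD 0.24, adjusted p 5.47e-05, edgeR), from 116, 109.6 and 184 CPM to 5.56, 5.09 and 8.32 CPM. Fn1 (fibronectin) fell by 3.65. In C1q-low members F13a1 was at 82.8, 66.9 and 54.8 CPM, above all members but below classical monocytes in each library. Of the 20 genes, 6 were at least 2-fold lower in C1q-low members in 3 of 3 libraries, among them F13a1, Fn1, Lyz2, Thbs1 and Vcan, against 21 of 9648 (0.218%).

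The genes with the highest folds over classical monocytes included genes of resident macrophages. The rule for named genes gave Folr2, Adrb1, Vsig4, H2-M2, Cd5l, Vcam1, Cd207, Lilra5, Slc40a1, Mmp12, Adamdec1 and Mmp13. Folr2 was at 83.4, 152.5 and 50.2 CPM in members and at 0 in classical monocytes. Cd5l was at 2067, 2484 and 1318 CPM against 7.73, 56.9 and 5.33 CPM, a log2 fold of 6.60 (SD 0.86, adjusted p 0.000347, edgeR), while C1q-low members had 3.38, 5.90 and 9.90 CPM. Vsig4, a complement receptor of resident macrophages, rose by 7.86 (SD 1.20, adjusted p 0.000136, edgeR) and stood at 5.07, 0 and 0.412 CPM in C1q-low members. Of 9 Kupffer markers, 8 rose and none fell. For Folr2, Cd5l and Vsig4 the excess was thus in members other than the C1q-low ones. Lilra5, an activating leukocyte receptor, was also above classical monocytes in C1q-low members, at 21.96, 39.3 and 84.5 CPM against 5.79, 1.42 and 0.968 CPM. Adrb1, the beta-1 adrenergic receptor, was at 48.2, 55.4 and 49.2 CPM in members and 6.76, 7.87 and 40.8 CPM in C1q-low members, with 0 in classical monocytes of the 3 libraries.

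Other lists moved as well, where 4.75% of all genes tested rose and 4.72% fell. Of 13 genes of MHC class II presentation, 7 rose and none fell. H2-Aa, an MHC class II alpha chain, was at 5173, 5015 and 3977 CPM in members against 1951, 2601 and 1499 CPM, with 4385, 3486 and 3094 CPM in C1q-low members. Of 14 cell cycle genes 8 rose, among them Pcna and Mcm3, with a list median of 1.52. None of the 14 was at least 2-fold higher in C1q-low members in 3 of 3 libraries. Of 19 glycolysis and hypoxia genes, 7 fell and none rose, including Gapdh and Pkm. Of 33 interferon-stimulated genes, 11 fell and 1 rose. Of 20 scavenging and complement genes 10 rose and 2 fell, the former including C1qa and Mertk. At least 2-fold higher in 3 of 3 libraries were 7 of these 20 in all members and none in C1q-low members. In C1q-low members 5 were at least 2-fold lower, among them C1qa, which defined the class. Immune checkpoint ligands and receptors rose in 6 of 13, among them Cd274 (PD-L1), with none lower. Of these 13, 2 were at least 2-fold higher in 3 of 3 libraries in all members and 1, Havcr2, in C1q-low members.

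Against Kupffer cells, members were higher in genes of circulating monocytes, among other groups. Kupffer cells were taken with Clec4f and Vsig4 present and Ace, Treml4, Cd300e and Chil3 at 0, which left 135 in control and 67 in low-AFP, the 2 libraries with at least 20. Their medians were 3127 and 5629 UMIs, so they were shallower than members. Barcodes outside the member rule by Clec4f alone, 124 in control and 186 in low-AFP, were not in this class. Those had medians of 8170 and 14177.5 UMIs, so requiring Ace, Treml4 and Cd300e at 0 left out deeper barcodes with Clec4f. The part of this choice in the counts below was not tested. Of 7123 genes tested, 632 (8.87%) were higher in members and 660 (9.27%) lower (edgeR, paired by library). The test rests on 2 pairs and each SD on 2 values, and DESeq2 gave 173 higher and 82 lower. Ly6c2, the classical monocyte antigen, was at 75.3 and 87.5 CPM in members and at 2.19 and 2.42 CPM in Kupffer cells, a log2 fold of 5.30 (SD 0.12, adjusted p 5.11e-06, edgeR). S100a4 rose by 4.84 and Napsa, an aspartic protease, by 4.35. Fmnl1, a formin of the leukocyte cytoskeleton, rose by 4.49. Classical monocyte genes rose in 9 of 15, with 1 lower. Markers of other cells moved as well, with 3 of 5 dendritic markers higher (Flt3, Clec9a and Xcr1) and 1, Tcf4, lower, 1 of 2 B and plasma cell markers higher (Ighm), and 5 of 11 cell cycle genes higher. Their part in the other differences was not tested.

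Among patrolling genes 8 of 27 rose against Kupffer cells, namely Stap1, Clec4a3, Pglyrp1, Spn, Itgax, Eno3, Gngt2 and Lst1, and Cd36, a fatty acid and lipoprotein receptor, fell. Integrins and adhesion genes rose in 8 of 21 with none lower, and Fc receptor genes in 8 of 14 with none lower. Timd4 fell by 4.50, from 217 and 92.1 CPM in Kupffer cells to 1.67 and 5.56 CPM. C6, a complement component, fell by 5.03, and Colec12, a scavenger receptor, by 5.70. Dcn fell by 4.31, but its Kupffer level was 1397 CPM in the control library and 9.70 CPM in the low-AFP library (SD of the log2 fold 3.63). Endothelial markers were lower in members in 8 of 12. The 6 of 10 Kupffer markers that fell had no counterpart that rose. Clec4f was required in Kupffer cells and excluded in members, so this direction was set in part by the rules.

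Between libraries, patrolling genes were higher in members of HCC than in those of high-AFP. A gene was counted when at least 50 CPM in either library and at least 2-fold apart after 10 CPM were added to both. Of 3428 genes, 177 (5.16%) were higher in HCC and 195 (5.69%) lower, and 14 of 27 patrolling genes were higher with none lower (median log2 fold 1.04, against -0.00 over all genes). Spn was at 60.2, 33.8, 28.7 and 209 CPM in members of the 4 libraries and Eno3 at 50.2, 35.2, 29.3 and 199 CPM. Pglyrp1 stood at 48.5, 25.01, 19.1 and 214 CPM. HCC was highest and high-AFP lowest for Spn, Eno3 and Pglyrp1, and the 4 libraries stood in the same order as the C1q-low shares of their members.

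The difference was smaller within C1q-low members and under 2-fold within C1q-high members for Spn, Eno3 and Pglyrp1. From high-AFP to HCC the log2 fold of Spn was 2.50 in all members, 1.38 in C1q-low members, 1.23 in the narrower set and 0.55 in C1q-high members. For Eno3 the values were 2.41, 1.31, 1.29 and 0.08, and for Pglyrp1 2.94, 1.63, 1.20 and 0.51. In C1q-low members 156 of 3619 genes (4.31%) were higher and 453 (12.5%) lower in HCC, and 11 of 27 patrolling genes were higher. The narrower set gave 177 of 3455 genes (5.12%) higher and 360 (10.4%) lower, again with 11 of 27 patrolling genes higher. In C1q-high members 28 of 3241 genes (0.864%) were higher and 74 (2.28%) lower, with 0 of 21 patrolling genes higher. These values are side by side without a test of their difference.

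Per cell and at equal depth, Spn and Eno3 were found in the largest share of C1q-low members in HCC, in part within counting error. With each cell thinned to 1000 nuclear UMIs, Spn was present in 14.8%, 8.48%, 14.5% and 29.7% of C1q-low members and Eno3 in 14.8%, 13.6%, 8.06% and 23.8%. Unthinned, Spn was present in 40.7%, 39.0%, 46.8% and 76.3%. Ace, a gene of the rule, was present in 14.8%, 22.03%, 25.8% and 39.6% after thinning, against 0% (exact 95% upper bound 0.676%), 1.19%, 0.453% and 0.357% of T cells. HCC held the highest share for Spn and Eno3. The exact interval of control, with 27 C1q-low members, covered the thinned HCC share of both genes. For Eno3 the interval of low-AFP, with 59, covered it as well. The Ace shares are set in part by the rule and support no difference between libraries.

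**Figure D5:**
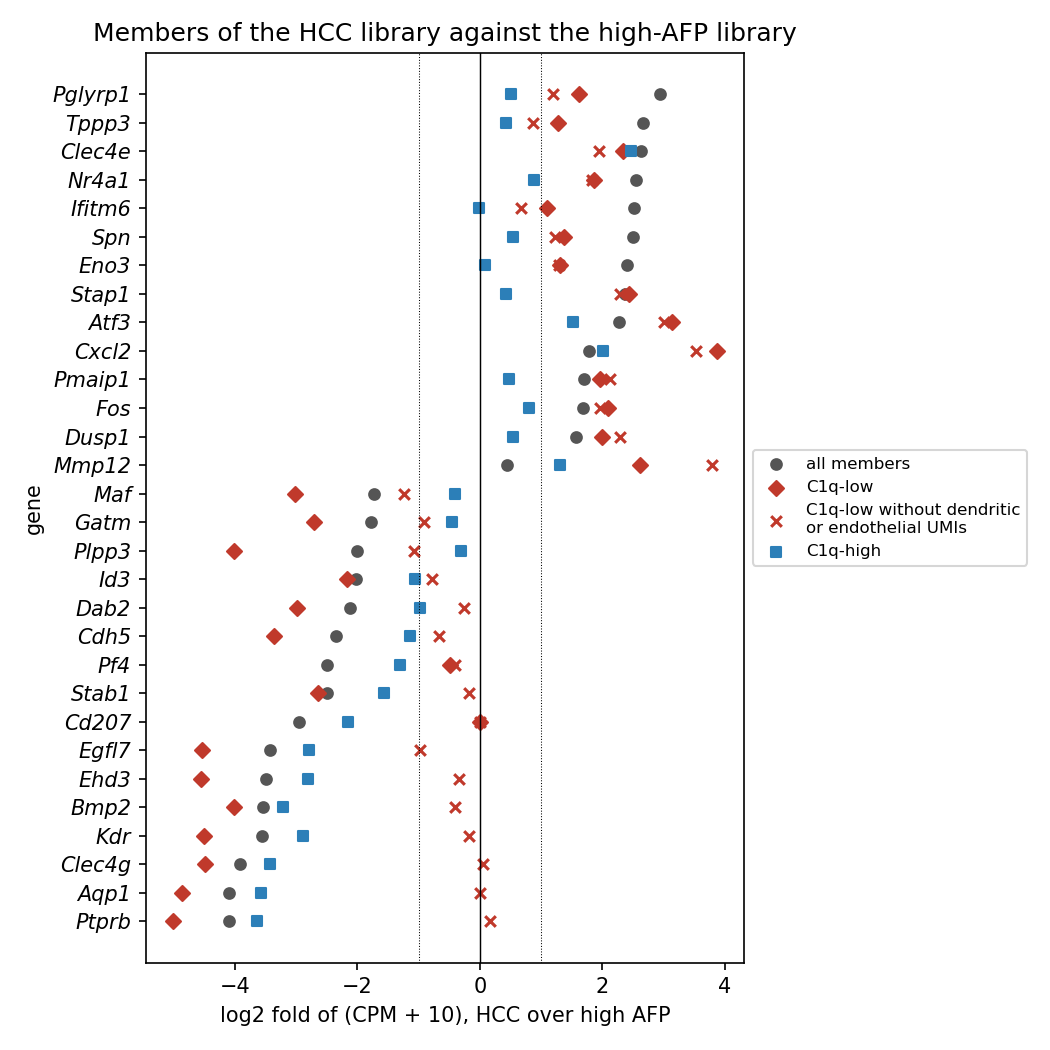
Log2 fold of (CPM + 10) of HCC over high-AFP (x axis, dotted lines at a 2-fold difference) for genes named by rule (y axis) in all members, C1q-low members, C1q-low members without dendritic or endothelial UMIs, and C1q-high members. Crosses for Ptprb and Kdr lie near 0 where diamonds lie at -5.01 and -4.51, and crosses for Spn and Eno3 stay right of 1.

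Immediate early genes, which cells switch on within minutes of a stimulus or of tissue dissociation, were also higher in HCC than in high-AFP. Of 23 measured, 9 were higher in all members, 12 in C1q-low members and 10 in the narrower set, with none lower. Over all measured genes the higher shares were 5.16%, 4.31% and 5.12%. Nr4a1 was at 243, 76.9, 63.4 and 419 CPM in all members and at 344 (95% interval 276 to 422), 150.3 (121 to 185), 153 (121 to 192) and 585 (555 to 616) CPM in C1q-low members. HCC was highest and control second in both. Nr4a1 was likewise highest in HCC among T cells, with a UMI in 11.9%, 10.2%, 10.7% and 20.7% of them. Fos was at 821, 591, 415 and 1813 CPM in C1q-low members, and Atf3, a stress-induced transcription factor, at 183, 109.8, 43.3 and 457 CPM. Dusp1, a phosphatase that ends MAP kinase signalling, was at 348, 206, 323 and 1312 CPM. Hspa1a, an inducible heat shock protein, was at 7.64, 10.1, 39.3 and 154 CPM. The order of libraries was not particular to members. The whole list summed to 10740, 7095, 6384 and 12370 CPM in members. In classical monocytes, of which control held 18, it summed to 9776, 7372, 6374 and 12910 CPM. In other kept barcodes the sums were 5678, 4786, 4182 and 10240 CPM.

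Inflammatory genes also differed between HCC and high-AFP. Of 13 measured in C1q-low members, 7 were at least 2-fold higher in HCC than in high-AFP and 1, Ccl5, was lower. Ccl5 is also on the list of T and NK cell markers, which summed to 956 CPM in high-AFP and 307 CPM in HCC in these cells. In the narrower set 5 of 14 were higher. Over all measured genes 4.31% were higher in C1q-low members and 5.12% in the narrower set. Cxcl2, a neutrophil-attracting chemokine, was at 3.82, 18.6, 7.87 and 252 CPM in C1q-low members, but only 42 of the 304 in HCC held a UMI of it. Il1b was at 378, 349.6, 325 and 856.5 CPM and was present in 234 of them. The neutrophil markers S100a8, S100a9, Retnlg and Csf3r were higher in HCC in the same cells, and their part in the chemokine values was not tested. Klf2, a flow-responsive transcription factor of monocytes and endothelium, was at 409, 362, 747.5 and 1535 CPM and Klf4, which monocytes need for maturation, at 157, 203, 285 and 662 CPM in C1q-low members. Clec4e, a receptor for mycobacterial glycolipid and dead cells, was at 34.4, 103, 31.5 and 201 CPM there. Its log2 fold from high-AFP to HCC was 2.64 in all members, 2.35 in C1q-low and 2.47 in C1q-high members.

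Genes lower in HCC than in high-AFP included markers of other cells. All 12 hepatocyte markers and all 9 measured endothelial markers were lower in all members, where 5.69% of all measured genes were lower. Ptprb, an endothelial phosphatase, had a log2 fold of -5.01 in C1q-low members and 0.17 in the narrower set, and Kdr, a VEGF receptor, -4.51 and -0.18. Hepatocyte markers were 12 of 12 lower in the narrower set as well. Of 8 Kupffer markers 6 were lower in all members, and Cd207 (langerin) had a log2 fold of -2.95 in all members and -2.15 in C1q-high members. Maf, a transcription factor of macrophages, had a log2 fold of -1.72 in all members, -3.01 in C1q-low members and -1.23 in the narrower set. Erythroid genes were 4 of 4 higher in HCC, with 8.37, 4.63, 7.96 and 2261 CPM for the list in all members.

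HCC against control showed patrolling genes in the same direction. Of 3551 genes, 102 (2.87%) were higher in HCC and 209 (5.89%) lower in all members, and 7 of 27 patrolling genes were higher with none lower. In C1q-low members 266 of 3497 (7.61%) were higher and 307 (8.78%) lower, with 15 of 27 patrolling genes higher and 2, Itgax and Cd83, lower. In C1q-high members 96 of 3610 (2.66%) were higher and 203 (5.62%) lower, with 1 of 22 patrolling genes, Pparg, higher and 1, Itgal, lower. Ear2 was at 103, 130.1, 209 and 371 CPM in C1q-low members and Stap1, a signalling adaptor, at 183, 106, 62.9 and 384 CPM. HCC was highest for both, while Stap1 was also higher in control than in low-AFP and high-AFP. The control C1q-low sum rests on 27 barcodes, 9 of which held dendritic or endothelial UMIs or both. Socs3, a feedback inhibitor of cytokine signalling, was at 28.4 CPM in control and 214 CPM in HCC members. Hspa1a was at 8.37 CPM in control and 131 CPM in HCC members.

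Against control, low-AFP and high-AFP members were lower in immediate early genes and higher in some macrophage genes. The summed immediate early list was also lower than control in classical monocytes and other kept barcodes of both libraries. From control to low-AFP 44 of 3529 genes (1.25%) were higher and 79 (2.24%) lower, and from control to high-AFP 34 of 3475 (0.978%) were higher and 80 (2.3%) lower. Both comparisons use the same control members. Egr1, an immediate early transcription factor, was at 699, 248, 177 and 95.5 CPM in the 4 libraries, and Egr3 at 137, 25.9, 8.597 and 10.2 CPM. Egr1 was highest in control and lowest in HCC, where Nr4a1 was highest. Of 22 immediate early genes 4 were lower in low-AFP and 6 in high-AFP. Within C1q-high members 6 of 22 and 7 of 22 were lower, where 89 of 3613 (2.46%) and 77 of 3562 (2.16%) of all genes were. Within C1q-low members 7 of 21 and 8 of 21 were lower, where 146 of 3460 (4.22%) and 169 of 3615 (4.67%) of all genes were. In C1q-low members 332 of 3615 genes (9.18%) were higher in high-AFP than in control, among them 11 of 12 hepatocyte markers.

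Among lipid-associated macrophage genes, 3 of 17 (Trem2, Cd63 and Mmp12) were higher in high-AFP than in control members and 1, Spp1, was lower. Of 8 Kupffer markers, 3 (Cd5l, Folr2 and Hmox1) were higher and 1, Vsig4, was lower. Trem2, a lipid-sensing receptor, was at 152 CPM in control and 430.2 CPM in high-AFP members. In C1q-high members alone it was at 273, 517, 546 and 378 CPM, above control in the other 3 libraries. Gpnmb, a lysosomal glycoprotein, was at 64.7, 196, 235 and 287 CPM there and Cd63, a lysosomal tetraspanin, at 241, 498.5, 562.5 and 945.5 CPM. Of 17 such genes in C1q-high members, 4 were higher in low-AFP than in control and 6 in high-AFP, with none lower, against 56 of 3613 genes (1.55%) and 40 of 3562 genes (1.12%). Cxcl9, a chemokine induced by interferon gamma, was at 10.0 CPM in control and 158 CPM in high-AFP members. Vcam1 was at 102 and 383 CPM in control and high-AFP members.

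Some genes lower than control were set by few barcodes. Jchain, Spp1 and Xcr1 were named by the rule, but the 430 Jchain UMIs of control lay in 1 barcode and 404 of the 671 Spp1 UMIs in another. Removing barcodes of high doublet score turned the log2 fold of Spp1 from -4.31 to 2.31 in low-AFP. Saa3, an acute phase protein, had 269 UMIs in low-AFP members, 170 of them in 1 barcode.

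Interferon-stimulated genes were higher in C1q-low members of low-AFP than in those of control. Of 27 measured, 15 were at least 2-fold higher and none lower, with a median log2 fold of 1.08, against 195 of 3460 genes (5.64%). In all members 2 of 27 were higher. The 33 genes of the list summed to 5122, 10170, 7982 and 9946 CPM in C1q-low members, so the low-AFP and HCC sums were close. HCC was not compared with low-AFP gene by gene. Isg15, an antiviral ubiquitin-like protein, was at 95.5 (61.8 to 141), 272 (232 to 317), 138 (107 to 174) and 142 (127 to 158) CPM in C1q-low members. Irf7, the transcription factor that amplifies interferon production, was at 95.5, 245, 122 and 149 CPM. Low-AFP was highest for Isg15 and Irf7, and its Isg15 interval lay apart from the other 3. From low-AFP to high-AFP 5 of 27 interferon genes were lower in C1q-low members, where 69 of 3534 genes (1.95%) were lower, and 11 of 28 in the narrower set, where 95 of 3365 genes (2.82%) were lower. Hepatocyte markers (7 of 12) and neutrophil markers (3 of 3) were also higher in low-AFP than in control C1q-low members, and their part was not tested. Control C1q-low members were 27 and low-AFP 59. The Cxcl10 UMIs of low-AFP were concentrated, with 141 in 1 member.

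High-AFP and low-AFP members differed little. Of 3300 genes, 22 (0.667%) were higher in high-AFP and 9 (0.273%) lower. Fabp5, a fatty acid carrier, was at 132 CPM in low-AFP and 275 CPM in high-AFP members. Vsig4 was at 286 and 101 CPM. Endothelial markers were higher in high-AFP in 6 of 9. Of 20 measured patrolling genes, 0 were at least 2-fold apart. In C1q-low members 183 of 3534 genes (5.18%) were higher in high-AFP, among them 8 of 10 endothelial markers and 1 of 26 patrolling genes, Klf2. In the narrower set 126 of 3365 (3.74%) were higher, with 0 of 25 patrolling genes among them. In C1q-high members 17 of 3246 (0.524%) were higher and 11 (0.339%) lower.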

How the data were processed

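Single-cell RNA was measured in 4 libraries of mouse liver, 1 per group. The deposited matrices hold whole-number UMI counts per gene and barcode, made with Cell Ranger 3.0.2 per the file headers; the submitters' processing notes also name R 3.0, Seurat 3 and the mm9 build. No coordinate was used. Cells were grouped by library from the titles and AFP labels. Members and gene lists were chosen with earlier results of these data known.

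UMIs were summed per library and cell class. Paired by library, members were tested against classical monocytes (3 libraries) and Kupffer cells (2 libraries) with edgeR 4.0.16 (quasi-likelihood test, TMM, filterByExpr, Benjamini-Hochberg at 0.05), with the library as a block because both classes come from the same library. The design named all 4 libraries for classical monocytes, and its own minimum of 20 cells left control out. Genes of either rule were not tested. DESeq2 1.42.0 was an alternative. Between libraries, log2 folds used 10 CPM added to each value, with no test, and shares have Clopper-Pearson intervals at 95%. Thinning drew 1000 nuclear UMIs per cell (seed 1). Doublets were kept in the results above. Scrublet in scanpy 1.11.5 marked 12, 8, 5 and 0 barcodes automatically, under its useful range, so removal of the highest scores at 0.8% per 1000 barcodes was an alternative. The test was tried on simulated data. R 4.3.3, Python 3.11.15, scipy 1.17.1, numpy 2.4.6 and pandas 2.3.3 were used.

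Genes were named by rule: against classical monocytes the 12 most higher and 12 most lower among genes past the threshold, in 1 direction in every library, with at least 50 CPM in the higher class; against Kupffer cells 5 each way; between libraries up to 8 each way with intervals apart and no fewer than 100 CPM and 20 UMIs in the higher library. Genes of the marker lists were named as well, and not all named genes are printed. Other alternatives were a limit of 3 UMIs, the rule without Ace, a mitochondrial limit of 15%, members with Ptprc only, 1 CPM added, a 10 CPM minimum and each library left out.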

Additional observations from a re-analysis of the deposited data

Results flagged for a closer look

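Barcodes that met every criterion except that they held a Chil3 UMI were outside all comparisons, and they made up more of the leukocytes in 3 libraries than in control. The control library had 19 of them, the HCC library 400, and the low-AFP and high-AFP libraries 113 and 119. Their number, counted with or without a Ptprc UMI, was 1.19% of the number of barcodes with a Ptprc UMI in control. This value was 5.31% for low-AFP, 3.81% for high-AFP and 6.42% for HCC. In HCC they were nearly as many as the 410 members. Ace, which counted towards their choice, was at 183, 220, 249 and 324 CPM. Their summed levels included patrolling genes that the rule did not use, with Spn at 148, 93.7, 127 and 171 CPM and Eno3 at 70.3, 85.6, 90.8 and 182 CPM. Genes of classical monocytes were present in the same barcodes, with Ly6c2 at 380, 532, 358 and 376 CPM and F13a1 at 246, 203, 99.6 and 123 CPM. C1qa was at 7.03, 363, 409 and 169 CPM. The cause of the difference in share was not tested.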

How the results depend on the processing

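Limits: each group is 1 library, control holds 58 members, intervals cover counting error only, and depth sets how many barcodes reach 2 UMIs of the rule. Settings on C1q, Chil3 and dendritic or endothelial UMIs were chosen after seeing the data. Shares of members among Ptprc barcodes, in the order control, low-AFP, high-AFP, HCC, became 2.69%, 5.45%, 6.25% and 5.58% with at least 3 UMIs, 1.33%, 1.70%, 1.70% and 3.19% after thinning to 1500 UMIs, 1.69%, 2.77%, 1.955% and 4.88% with C1q under 10 per 10000, and 4.76%, 13.3%, 12.7% and 12.9% without the Chil3 criterion. Without Ace in the rule the HCC share was 5.05%. Genes higher and lower against classical monocytes numbered 299 and 263 with DESeq2, 172 and 140 in thinned cells, and 743 higher with no filter on low counts. Leaving out 1 library gave 207 to 482 higher and 108 to 497 lower; without low-AFP the counts were 231 and 171 and without high-AFP 207 and 108. With no replicate block, so that the pairing by library was dropped, 83 were higher and 46 lower. Against Kupffer cells the counts were 173 and 82 with DESeq2, 249 and 191 in thinned cells, and 144 and 119 with no replicate block, without the pairing. Leaving out a library there was not run, since 1 pair would remain, and the narrower set was not compared with control, which held 18 such cells. The cause of these changes was not tested.

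Between libraries, counts of genes at least 2-fold apart moved under several settings. After thinning to 1000 UMIs, where sums are far smaller, counts higher and lower were 469 and 637 for low-AFP against control, 345 and 587 for high-AFP against control, 400 and 784 for HCC against control, 114 and 124 for high-AFP against low-AFP, and 321 and 337 for HCC against high-AFP. With a 10 CPM minimum, they were 116 and 221 for low-AFP against control, 88 and 177 for high-AFP against control, 622 lower for HCC against control, 46 and 18 for high-AFP against low-AFP, and 487 lower for HCC against high-AFP. With at least 3 UMIs, 70 were higher for low-AFP against control, 59 for high-AFP against control, and 42 higher and 32 lower for high-AFP against low-AFP. Without Ace 24 were lower in that pair, and with 1 CPM added 15. With doublet scores removed, 34 were lower for low-AFP against control, 139 lower for HCC against control and 6 higher for high-AFP against low-AFP. In C1q-low members the counts were 195 and 146, 332 and 169, 266 higher, 183 and 69, and 453 lower for the same 5 pairs. In C1q-high members 28 were higher and 74 lower for HCC against high-AFP. In the narrower set 126 were higher and 95 lower for high-AFP against low-AFP, and 360 lower for HCC against high-AFP.

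Some single genes turned direction. With doublet scores removed, the log2 fold of Spp1 against control was 2.31 for low-AFP, 2.62 for high-AFP and 1.98 for HCC, and in C1q-high members 2.79, 3.69 and 3.22. In C1q-high members Xcr1 was at 0.19 in low-AFP and 0.17 in high-AFP, Cd24a at 0.22 in high-AFP and 0.97 in HCC, Jchain at 0.33 in HCC, Cxcl10 at 0.29 for high-AFP against low-AFP and Ifitm6 at -0.011 for HCC against high-AFP. In thinned cells Cd24a was at 0.77 in high-AFP and 1.31 in HCC. In C1q-low members Vcam1 was at -0.80 in low-AFP and Cd63 at -0.67 in high-AFP. Of the genes named, none of the 24 against classical monocytes or 10 against Kupffer cells turned direction in the settings of those tests. C1q-low members alone were not among these settings, and some named genes differed there. Over classical monocytes, C1q-low members had log2 folds of -0.41 (low-AFP), -2.07 (high-AFP) and 0.38 (HCC) for Cd5l. Lilra5 stayed higher, at 1.02, 2.11 and 3.11 for the same libraries. Over Kupffer cells, Hist1h2ap was at -0.29 in C1q-low members of control and 2.58 in those of low-AFP.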
